A study of Homo sapiens with 28 samples.

Results

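Of the 28 RNA-seq libraries of this series, the 8 described here compare LNCaP cells given tunicamycin with and without a PERK inhibitor, and each was assigned to its group by its label. LNCaP is an established androgen-responsive line from a prostate cancer metastasis. The 4 control libraries (TM siCtrl) come from cells that received a non-targeting siRNA and then tunicamycin at 2.5 µg/mL. The 4 treated libraries (TM PERKi siCtrl) received the same siRNA and tunicamycin plus 100 nM GSK2606414. In both groups the treatment lasted 18 h and the labels give the harvest as 2 days after transfection plus that treatment, so neither group is free of siRNA or of tunicamycin. Another 4 libraries, with the non-targeting siRNA and DMSO in place of tunicamycin (DMSO siCtrl), are given below as the unstressed level. The series also holds cells given tunicamycin after siRNAs against PERK or ATF4, and its design text states 4 independent experiments, so the spread between libraries covers repeated cultures of 1 line.

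Tunicamycin blocks N-glycosylation, so that unfolded glycoproteins build up in the endoplasmic reticulum (ER). The ER stress sensors are PERK, IRE1 and ATF6. PERK, the product of EIF2AK3, phosphorylates the translation factor eIF2α, which lowers protein synthesis in general while ATF4 mRNA is translated more, and ATF4 then switches on CHOP (DDIT3), the phosphatase subunit GADD34 (PPP1R15A) and genes for amino acid supply. IRE1 splices XBP1 mRNA and can also cut other ER-bound mRNAs, a process called regulated IRE1-dependent decay, and ATF6 and spliced XBP1 together drive the genes of ER chaperones and of ER-associated degradation. GSK2606414 binds the ATP pocket of the PERK kinase and is also known to inhibit the kinases RIPK1 and KIT.

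Library totals were 14052883 to 17253801 counts in TM siCtrl and 11580800 to 15593975 with the inhibitor. The 10 most abundant genes took between 7.16% and 9.85% of the counts of these 8 libraries, with every inhibitor library above every TM siCtrl library. In a principal component analysis of all 28 libraries, the first component (52.3% of the variance) placed TM siCtrl at 30.2 to 32.8, the inhibitor libraries at 42.6 to 49.4 and DMSO siCtrl below 0, so that the inhibitor libraries lay further from DMSO siCtrl than TM siCtrl did. Inhibitor replicate 4 was the lowest of its group on that component. The luminal label was checked on 10 markers, which summed to 3365 to 3686 CPM (counts scaled to library size) in TM siCtrl and 2721 to 3067 CPM with the inhibitor, with KRT8 and KRT18 leading and none at 0. Markers of other cell types stayed low in both groups: 8 basal markers summed to at most 2.02 CPM with TP63 and KRT6A at 0, 10 leukocyte markers to at most 7.54 CPM and 7 endothelial markers to at most 12.8 CPM. The 10 mesenchymal markers, led by FN1, summed to 169 to 197 CPM in TM siCtrl and 158 to 179 CPM with the inhibitor.

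With the inhibitor, more genes rose than fell among the ER chaperones, the degradation machinery, the ATF4 and CHOP targets, the DNA replication genes and the cholesterol genes. More fell than rose among the androgen-regulated genes, the glycolytic genes and the transcripts known to be cut by IRE1. Of 25369 genes counted, 14314 passed a filter on low counts and were tested, and 5112 (35.7%) were called at an adjusted p under 0.05, 2601 of them higher (18.2%) and 2511 lower (17.5%). Most of these changes were small: 81.7% of the called genes changed by less than 1.5-fold, and the median change of all genes tested was −0.0049 on the log2 scale. In all, 114 genes rose at least 2-fold (0.796%) and 111 fell at least 2-fold (0.775%). Without inhibitor replicate 4 the counts were 2535 higher and 2426 lower, with 110 and 152 at least 2-fold. The values of the 2 groups did not overlap for 4655 genes (32.5%), and 80.2% of the called genes were among these. These percentages are the background against which the counts of each gene group below are read. Throughout, changes are log2 differences (inhibitor minus TM siCtrl) ± SE from the edgeR fit, and levels are normalised CPM listed for replicates 1 to 4, TM siCtrl before the inhibitor.

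**Figure D1:**
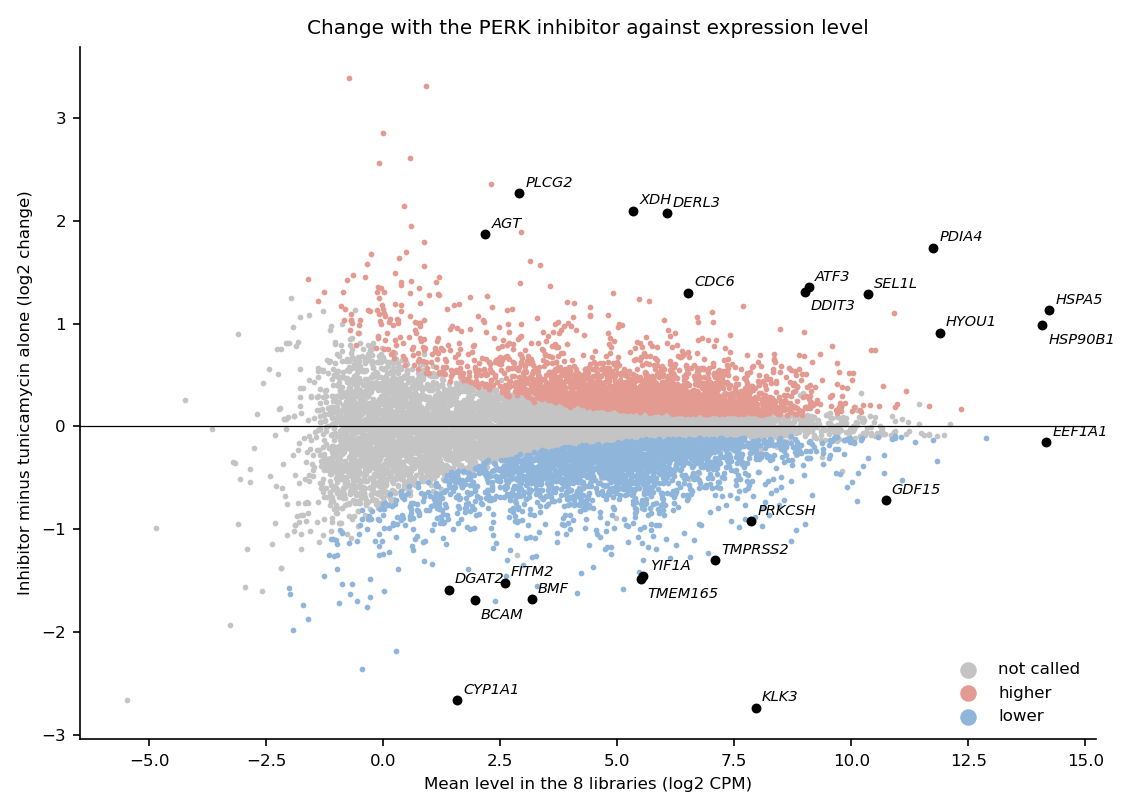
Log2 change with the inhibitor (vertical axis) against the mean level in the 8 libraries (horizontal axis, log2 CPM) for the 14314 genes tested, with called genes in red (higher) and blue (lower) and named genes in black. HSPA5 and HSP90B1 combined some of the highest levels with rises of 1.13 and 0.98, and KLK3 lies lowest among the genes labelled, at −2.74.

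More mRNAs of the PERK branch rose than fell in the presence of the inhibitor. Of 15 genes listed for this branch and tested, 8 rose and 3 fell, with a median change of 0.29. The list also holds other eIF2α kinases, EIF2AK2 among the rises and EIF2AK1 and EIF2AK4 among the falls. It shares DNAJC3 with the ER chaperone list below. EIF2AK3 (chr2:88856259-88927094, hg19), which encodes the drug's target, stood at 79.9, 95.1, 90.6 and 90.9 CPM in TM siCtrl and at 120.1, 124, 125 and 130.4 CPM with the inhibitor (0.49 ± 0.06, adjusted p = 6.09e-08). The 2 groups did not overlap, and both were above the DMSO mean of 30.2 CPM. ATF4 mRNA was at 1478, 1486, 1561 and 1516 CPM and 1460.5, 1469.7, 1384 and 1343 CPM, a change of −0.09 ± 0.15 that was not called (adjusted p = 0.657). The inhibitor libraries lay lower without overlap, and a fit of the 8 libraries alone called ATF4 lower.

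DDIT3, which encodes the pro-apoptotic factor CHOP, stood at 259, 273, 309 and 339 CPM in TM siCtrl and at 681, 742, 726 and 777 CPM with the inhibitor, a 2.48-fold rise (1.31 ± 0.14, adjusted p = 1.81e-07). ATF3, a stress-induced repressor and activator, stood at 305, 316, 324 and 278 CPM and 778, 802, 851 and 700.1 CPM, a 2.56-fold rise (1.36 ± 0.14, adjusted p = 7.02e-08). For both, each inhibitor library was more than 2-fold above the highest TM siCtrl library, and the DMSO means were only 21.1 CPM for DDIT3 and 36.5 CPM for ATF3. PPP1R15A, whose product reverses eIF2α phosphorylation, rose from 25.9, 22.7, 26.8 and 23.9 to 41, 37.3, 42.6 and 37.1 CPM (0.67 ± 0.08). Its constitutive counterpart PPP1R15B rose by less (0.22 ± 0.05). DNAJC3, which encodes the ER co-chaperone p58IPK, rose from 323, 373, 369 and 345 to 623, 671, 699 and 671 CPM (0.92 ± 0.05, adjusted p = 8.46e-17). NFE2L2, which encodes the antioxidant factor NRF2, rose as well (0.44 ± 0.07).

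TRIB3, a pseudokinase gene induced by ATF4 and CHOP, and FAM129A were not called. TRIB3 stood at 700.2, 646, 718 and 654 CPM in TM siCtrl and 708, 748, 755 and 725 CPM with the inhibitor, the groups overlapped, and its change of 0.11 ± 0.13 was not called (adjusted p = 0.539), although a fit of the 8 libraries alone called it higher. FAM129A, also known as NIBAN1, was higher in every inhibitor library (178, 201, 190.0 and 178 and 249, 261, 248 and 231 CPM) but missed the threshold (0.40 ± 0.16, adjusted p = 0.0569). It was called with a minimum count of 50, with the replicate number as a block, with limma-voom and in a fit of the 8 libraries alone. The other eIF2α kinases moved little and in different directions: EIF2AK2 (PKR) rose by 0.29, EIF2AK4 (GCN2) changed by −0.24 and EIF2AK1 (HRI) by −0.14, all 3 called. The EIF2AK1 call was lost without TM siCtrl replicate 2 (log2 change −0.11).

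**Figure D2:**
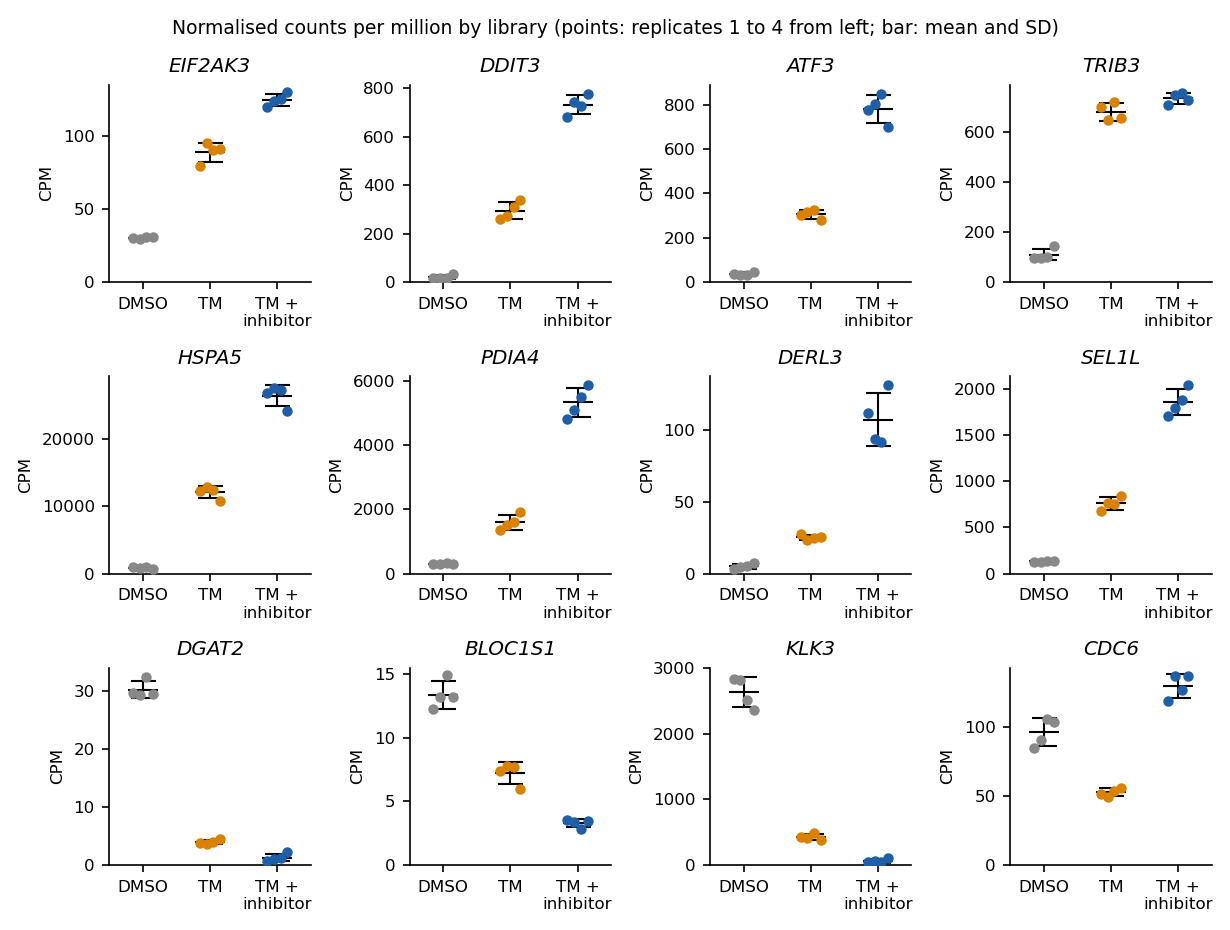
Normalised CPM of 12 genes in each of the 4 libraries of DMSO siCtrl (grey), TM siCtrl (orange, TM) and tunicamycin with the inhibitor (blue), with the group mean and SD as bars; every vertical axis starts at 0. HSPA5, PDIA4, DERL3 and SEL1L step up from DMSO to tunicamycin and again with the inhibitor, while TRIB3 overlaps between the tunicamycin groups and DGAT2, BLOC1S1 and KLK3 step down.

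Among 30 targets of ATF4 and CHOP, 4 of which also stand in the PERK branch list, 14 rose and 4 fell, with a median change of 0.19. FGF21, which encodes a secreted metabolic hormone, was scarce at 2.38, 1.96, 2.03 and 2.32 CPM and rose to 5.02, 3.74, 3.26 and 4.7 CPM (0.93 ± 0.21). RAB39B, a small GTPase gene, rose from 87.1, 93.8, 86.3 and 83.1 to 151, 164, 162 and 149 CPM (0.84 ± 0.07), and GADD45A, a growth arrest gene, rose by 0.67. At the other end, GDF15, which encodes a secreted stress cytokine, fell from 2485, 2090.4, 2029 and 1862 to 1313, 1405, 1221 and 1201 CPM (−0.72 ± 0.13, adjusted p = 0.000109). Several targets often used as readouts of ATF4 were not called. CHAC1, a glutathione-degrading enzyme, changed by 0.09 ± 0.22 and STC2, a secreted glycoprotein, by −0.06 ± 0.14, and both were named after their values were seen.

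Among genes of amino acid supply the synthesis enzymes and tRNA synthetases rose more often than they fell, and the transporters fell more often. Of 26 genes of amino acid and one-carbon synthesis, 10 rose and 1 fell (median 0.12). CTH, which makes cysteine from cystathionine, rose from 32.8, 34.1, 37.7 and 31.3 to 58.3, 61.6, 56.4 and 56.5 CPM (0.78 ± 0.08), GOT1, the cytosolic aspartate aminotransferase, rose by 0.63 and MTHFD2, the mitochondrial folate enzyme, rose by 0.56. The scarce BCAT1, a branched-chain aminotransferase, rose by 0.94 ± 0.26. GLUL, glutamine synthetase, was the 1 member that fell (−0.45 ± 0.05), with 2 or 3 members lower under 5 of the alternatives. ASNS, asparagine synthetase, stood at 495, 537, 516 and 507 CPM and 558, 572, 538 and 556 CPM, and its change of 0.11 ± 0.08 was called only in a fit of the 8 libraries alone. Of 20 tRNA synthetase genes 7 rose and 0 fell (median 0.10), led by WARS, for tryptophan (0.53 ± 0.05), and 1 member was lower with a replicate block or without TM siCtrl replicates 2 or 4. Of 21 amino acid transporters, 2 rose and 7 fell (median −0.03): SLC7A1 and SLC3A2 rose by 0.39 and 0.39, and SLC1A4, which carries alanine, serine and cysteine, fell from 64.9, 66.9, 59.3 and 59.3 to 43.6, 40.3, 42.3 and 38.9 CPM (−0.60 ± 0.09).

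Among the sensors of the other branches the rises were small. Of 12 sensor and processing genes of the IRE1, ATF6 and CREB3 families, 4 rose and 0 fell (median 0.09), and 1 member was called lower under 9 of the alternatives. ERN1, which encodes IRE1α, rose from 67.5, 68.5, 69.7 and 69.5 to 83, 90.4, 90.2 and 87.8 CPM (0.35 ± 0.07). XBP1, the transcript that IRE1 splices, rose from 282, 291, 268 and 254 to 321, 333, 323 and 315 CPM (0.24 ± 0.04, adjusted p = 4.55e-05). The counts do not separate spliced from unspliced XBP1. ATF6 itself changed by 0.08 ± 0.05 and was not called.

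Most ER chaperones were higher than at the tunicamycin level, which was itself above DMSO. Of 21 ER chaperones and cochaperones of the Hsp70 and GRP94 systems, 12 rose and 2 fell, with a median change of 0.50 against −0.0049 for all genes. Together the 21 genes took 3.25, 3.41, 3.29 and 3.07% of the counts in the TM siCtrl libraries and 6.01, 6.07, 6.2 and 5.74% with the inhibitor, against a mean of 0.477% in DMSO siCtrl. HSPA5 (chr9:127997127-128003666, hg19), which encodes BiP, the main ER Hsp70, had the largest rise in CPM of all genes, from 12267, 12847, 12408 and 10754 to 26882, 27525, 27284 and 24199 CPM (2.19-fold, 1.13 ± 0.09, adjusted p = 3.73e-10). HSP90B1 (GRP94) went from 11514, 12584, 11653 and 11019 to 22930.0, 23310.0, 24134 and 21986 CPM (0.98 ± 0.06). HYOU1, a nucleotide exchange factor of BiP, went from 2562, 2652, 2745 and 2595 to 4968, 5035, 5059 and 4790.4 CPM (0.91 ± 0.05). In these 3 genes the lowest inhibitor library was more than 1.5-fold above the highest TM siCtrl library. SDF2L1, a BiP partner, and FKBP14, an ER prolyl isomerase, rose by 1.18 and 1.01, and the 2 members that fell were SIL1 (−0.26 ± 0.04) and SDF2 (−0.22 ± 0.07). The SDF2 call was lost without TM siCtrl replicates 2 or 3 or inhibitor replicate 4, leaving 1 lower.

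Fewer genes of disulfide chemistry were called. Of 24 protein disulfide isomerases and oxidases, 9 rose and 3 fell (median 0.08). PDIA4 (chr7:148700154-148725782, hg19) had the largest rise of the list and went from 1361, 1509, 1591 and 1919 to 4816, 5101, 5506 and 5867 CPM, a 3.34-fold rise (1.74 ± 0.07, adjusted p = 3.75e-16). The abundant relatives PDIA6 and PDIA3 rose by 0.45 and 0.35. ERO1LB, which reoxidises the isomerases, rose by 0.84 ± 0.08, and ERP44, which retains oxidases in the ER, by 0.68 ± 0.05. QSOX1, a sulfhydryl oxidase of the Golgi, fell from 251, 205, 231 and 196 to 162, 149, 156 and 129.6 CPM (−0.57 ± 0.07).

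ER-associated degradation (ERAD), which sends misfolded proteins from the ER to the proteasome, moved mostly upward. Of 22 ERAD genes 13 rose and 1 fell, with a median change of 0.26. DERL3 (chr22:24176690-24181199, hg19), of the Derlin family of retrotranslocation proteins, went from 27.8, 23.6, 24.9 and 25.6 to 112, 94.3, 91.9 and 132 CPM (4.22-fold, 2.08 ± 0.14, adjusted p = 4.06e-11), with a DMSO mean of 5 CPM. SEL1L, the scaffold of the HRD1 ubiquitin ligase, went from 677, 765, 759.6 and 838 to 1712, 1795, 1881 and 2047 CPM (1.29 ± 0.08). HERPUD1, a labile adaptor of the same complex, went from 1261, 1246, 1280.5 and 1115 to 2591, 2695, 2604 and 2644 CPM (1.10 ± 0.06), and SYVN1, the ligase itself, rose by 0.59. The call of the 1 member that fell, UBE2G2 (−0.13 ± 0.05), was lost without TM siCtrl replicate 4, inhibitor replicate 2 or inhibitor replicate 3, leaving 0 lower. Of 31 proteasome genes 16 rose and 1 fell (median 0.12), with PSMA5, a subunit of the core particle, rising by 0.43. The call of the 1 that fell, PSMB5 (−0.14 ± 0.05), was lost (0 lower) without TM siCtrl replicates 3 or 4 or inhibitor replicates 1 or 2.

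All calls among genes of traffic out of the ER were rises. Of 47 genes of the translocon, signal recognition and COPII or COPI transport, 27 rose and 0 fell (median 0.17). SEC31A, of the outer COPII coat, rose from 353, 368, 365 and 353 to 564, 579.9, 596 and 581 CPM (0.69 ± 0.04). Its inner coat partners SEC23B and SEC24D rose by 0.45 and 0.42, and BET1, a SNARE of ER to Golgi vesicles, by 0.55.

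The glycoprotein quality control genes were mixed. Of 17 genes of the calnexin and lectin cycle, 8 rose and 3 fell (median 0.10). EDEM1, which marks misfolded glycoproteins for degradation, rose from 238, 263, 256 and 237 to 429, 412, 404 and 377 CPM (0.71 ± 0.06). PRKCSH, the β subunit of glucosidase II, went the other way, from 309.6, 292, 301 and 316 to 161, 153, 153 and 176 CPM (−0.92 ± 0.05, adjusted p = 2.69e-17). Its DMSO mean was 314 CPM, close to the TM siCtrl values. Of 35 N-glycosylation genes 12 rose and 4 fell (median 0.09), with MAGT1, an oxidoreductase subunit of the oligosaccharyltransferase, at 0.63 ± 0.05 and DOLK, dolichol kinase, at −0.60 ± 0.06.

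**Figure D3:**
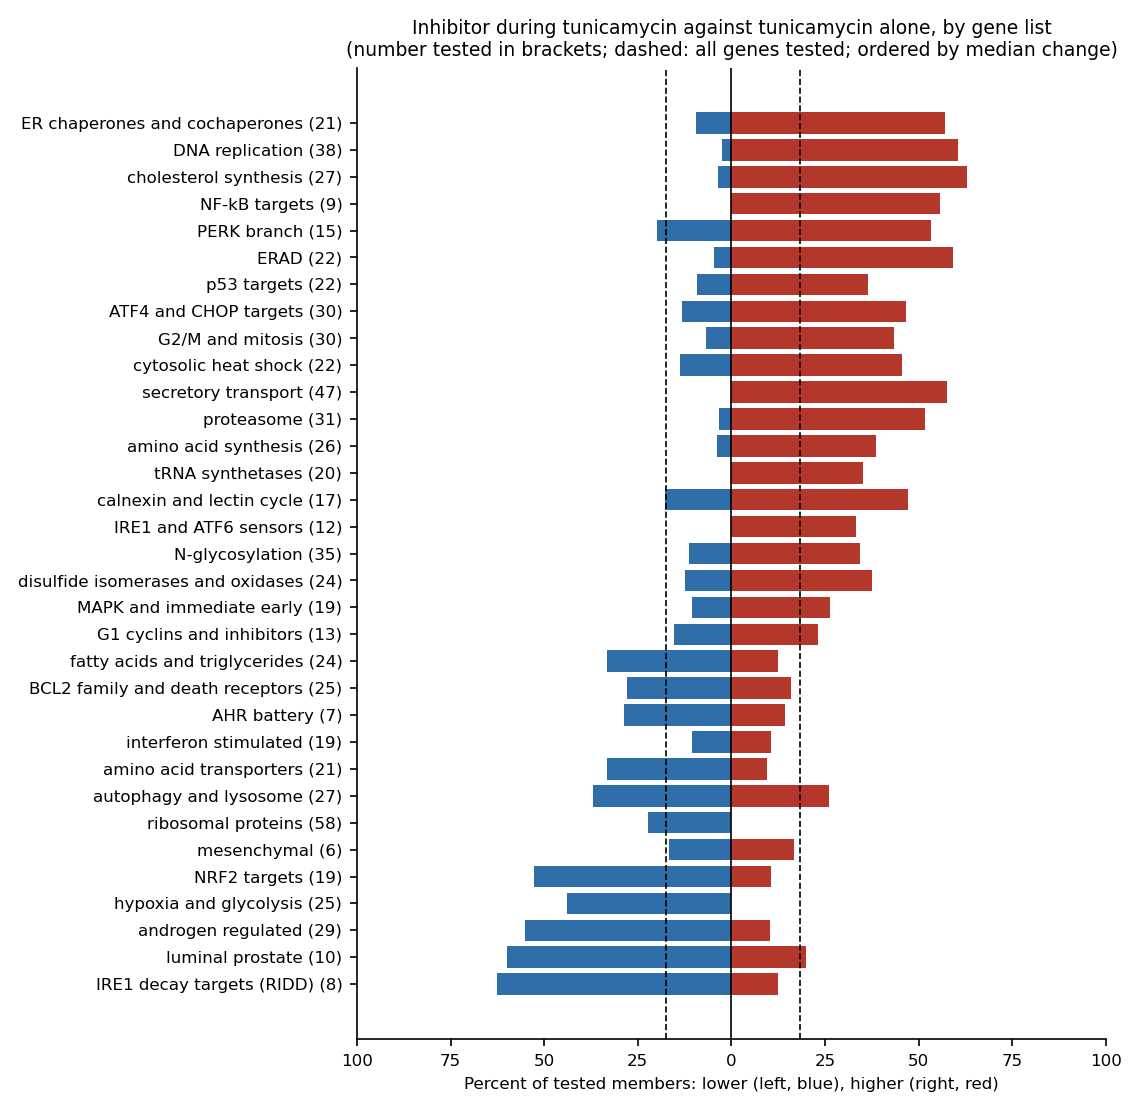
Percent of the tested members of each gene list that were called higher (red, right) or lower (blue, left) with the inhibitor, for lists with at least 6 tested members, ordered by median change; the dashed lines mark all genes tested, 18.2% higher and 17.5% lower. ER, ERAD, transport, replication and cholesterol lists lie past the right line, and androgen, NRF2, glycolysis and IRE1 decay lists past the left line.

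The ER stress response element (ERSE) is the best known sequence through which ATF6 and XBP1 act on chaperone genes, so it was searched in the promoters. It was taken as CCAAT, then any 9 bases, then CCACG, on either strand, and ERSE-II as ATTGG, any 1 base, then CCACG. The windows run from 250 bases before to 50 after each gene's start (RefSeq, GRCh38.p14). ERSE letters were found in 22 of 27305 promoters (0.0806%) and ERSE-II letters in 15 (0.0549%). The stretches around the matches of chaperone genes named in this text are printed on the strand of the gene, 5′ to 3′, with the 5-base blocks of each match in capitals. On the complementary strand the blocks read CGTGG and ATTGG for ERSE, and CGTGG and CCAAT for ERSE-II.
HSPA5, chr9:125241376-125241424, minus strand: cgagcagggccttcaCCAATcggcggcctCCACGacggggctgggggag
HSP90B1, chr12:103930201-103930354, plus strand: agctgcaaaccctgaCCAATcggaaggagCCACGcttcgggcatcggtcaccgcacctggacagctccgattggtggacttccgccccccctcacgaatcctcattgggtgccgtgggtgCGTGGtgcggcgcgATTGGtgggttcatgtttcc
CRELD2, chr22:49918539-49918587, plus strand: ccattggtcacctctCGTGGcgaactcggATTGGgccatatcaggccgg
CALR, chr19:12938369-12938417, plus strand: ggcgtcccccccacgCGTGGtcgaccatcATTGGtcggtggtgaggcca
CANX, chr5:179698763-179698811, plus strand: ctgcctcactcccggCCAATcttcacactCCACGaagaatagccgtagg
HYOU1, chr11:119057259-119057405, minus strand: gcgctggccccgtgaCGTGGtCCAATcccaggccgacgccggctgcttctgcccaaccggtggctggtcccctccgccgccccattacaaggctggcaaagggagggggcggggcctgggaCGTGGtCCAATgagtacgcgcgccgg
SDF2L1, chr22:21642099-21642139, plus strand: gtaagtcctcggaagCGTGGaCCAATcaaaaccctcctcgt

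HSP90B1 and HYOU1 each hold 2 matches in the stretch printed, and the others hold 1. The genes with these letters were mostly higher with the inhibitor. Of 14 tested genes with an ERSE match, 12 were called higher and 0 lower, with a median change of 0.41, where 18.2% of all genes tested were higher. The 12 were HSPA5, HSP90B1, ERO1LB, SERP1, TRIM5, CRELD2, FICD, ALG12, XBP1, CANX, CALR and EIF2A, in falling order from 1.13 to 0.12. The EIF2A call was lost under upper-quartile factors, without the low-count filter, in a fit of the 8 libraries alone and without TM siCtrl replicates 1 or 4 or inhibitor replicates 1, 2 or 3, and its change ran from 0.09 to 0.16 over all alternatives. TRIM5, an antiviral restriction factor, and FICD, which modifies BiP by AMPylation, rose by 0.52 and 0.50. Of 11 tested genes with an ERSE-II match 7 were called higher and 2 lower. Among these SHCBP1, a gene of dividing cells, rose by 1.24 ± 0.07, SDF2L1 by 1.18 ± 0.07, RAD9A, of the DNA damage clamp, by 1.16 ± 0.09 and HERPUD1 by 1.10 ± 0.06, while GYS1, glycogen synthase, and PLS3, an actin bundler, fell (−0.40 ± 0.07 and −0.41 ± 0.06). The core of another XBP1 element (UPRE, taken as TGACG followed directly by TGG) stood in 0.795% of promoters, and of 102 tested genes with it 46 were higher (45.1%) and 9 lower (8.82%). The amino acid response element bound by ATF4 (TGATG, any base, AAT) stood in 1.02% of promoters, and of 58 tested genes with it 17 were higher and 6 lower. The other two elements searched lay near the background: a sterol element (TCACN followed directly by CCAC) stood in 1.15% of promoters, and of 120 tested genes with it 25 were higher (20.8%) and 23 lower (19.2%). The xenobiotic element read by the aryl hydrocarbon receptor (TNGCGTG) stood in 5.51% of promoters, and of 805 tested genes with it 170 were higher (21.1%) and 144 lower (17.9%). A match is a run of letters and not a shown binding site, and the 12 and 7 genes were named after their values were seen.

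**Figure D4:**
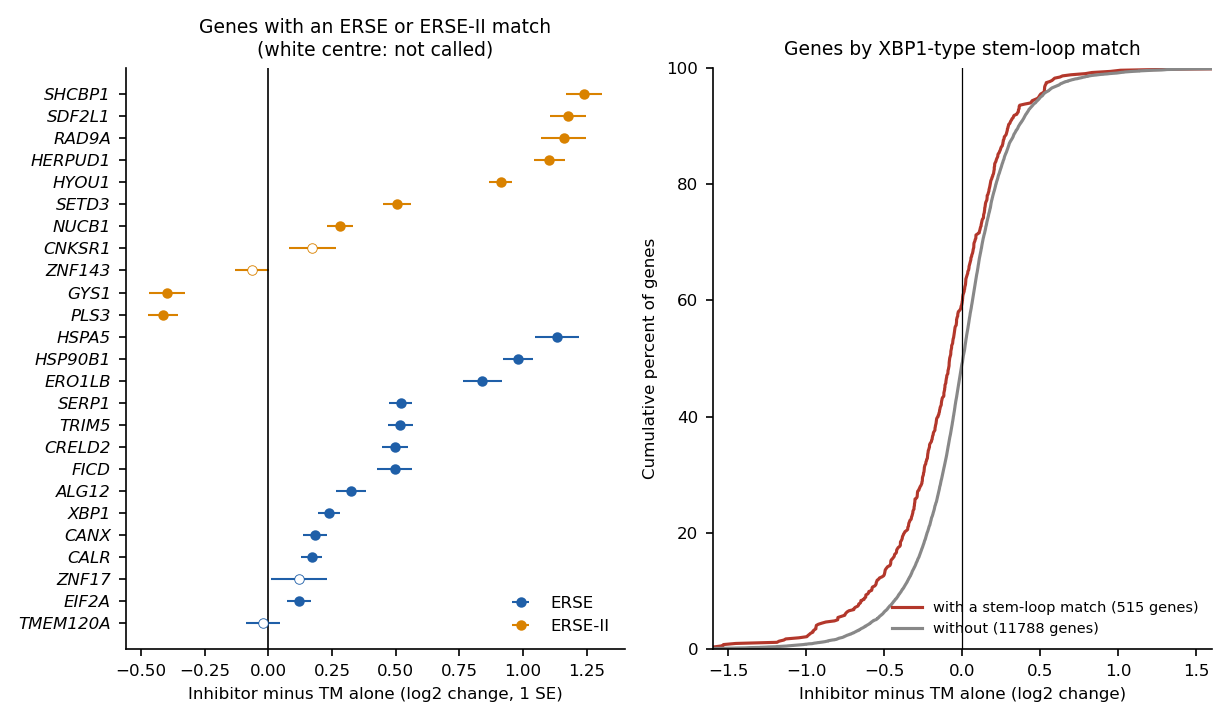
Left: log2 change with the inhibitor ± 1 SE for the 14 tested genes with an ERSE match (blue) and the 11 with an ERSE-II match (orange) in the promoter window, white centres marking genes not called. Right: cumulative percent of genes by log2 change for 515 genes with an XBP1-type stem-loop in the transcript (red) and 11788 without (grey), the red curve lying to the left of the grey one over most of its length, with medians of −0.08 and 0.0034.

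Transcripts known as substrates of IRE1 decay were mostly lower. Of 8 tested, 5 fell and 1 rose, with a median change of −0.70, and 4 fell at least 2-fold. The call of the 1 that rose, TNFRSF10B (0.24 ± 0.08), was lost (0 higher) without TM siCtrl replicate 4 or inhibitor replicate 1. DGAT2, which makes triglyceride, went from 3.86, 3.62, 3.92 and 4.51 to 0.731, 1.1, 1.16 and 2.16 CPM (−1.59 ± 0.26, adjusted p = 6.84e-06), from a DMSO mean of 30.2 CPM. CD59, a surface inhibitor of complement, went from 37.2, 38, 34.8 and 38.5 to 17.4, 16.8, 14.9 and 16.3 CPM (−1.19 ± 0.08, adjusted p = 3.28e-15). BLOC1S1, of complexes that position lysosomes and a widely used marker of this decay, went from 7.43, 7.78, 7.69 and 5.97 to 3.56, 3.4, 2.85 and 3.43 CPM (−1.13 ± 0.13, adjusted p = 2.20e-09). The groups did not overlap for these 3 genes. HGSNAT, a lysosomal acetyltransferase, fell by less (−0.29 ± 0.05). SCARA3, a scavenger receptor, was near the detection limit with overlapping groups (1.01, 1.07, 1.16 and 0.531 and 0.0913, 0.34, 0.68 and 0.523 CPM), and its call (−1.11 ± 0.43) was lost with limma-voom and without TM siCtrl replicates 1, 2 or 3 or inhibitor replicates 1, 2 or 4. Its change ran from −1.48 to −0.83 over all alternatives. COL6A1 (−0.26 ± 0.16) and SPARC (0.29 ± 0.58) were not called, although COL6A1 was with a replicate block, and SPARC stood near 0 without inhibitor replicate 2 (−0.0041).

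IRE1 cuts XBP1 at paired stem-loops whose 7-base loop carries the letters CNGCAGN, so that form was searched in transcripts: this loop between at least 4 pairing bases, in the longest protein-coding transcript of each gene (GENCODE 29, GRCh38). The search was chosen after the decay targets had been seen to fall. The sites of XBP1, of the 4 decay targets that hold one and, as examples among the lowered genes, of BCAM and PRKCSH are printed 5′ to 3′ on the strand of the transcript, with the loop in capitals, up to 8 bases of stem on either side in lower case and the coordinates of the loop.
XBP1, 1st site, chr22:28796149-28796155, minus strand, coding, exon 4: ctgagtCCGCAGCactcag
XBP1, 2nd site, chr22:28796123-28796129, minus strand, coding, exon 4: tgcacctCTGCAGCaggtgca
BLOC1S1, chr12:55719589-55719595, plus strand, 3′ UTR of this transcript, exon 3: gggcagCTGCAGTctgccc
DGAT2, chr11:75790195-75790201, plus strand, coding, exon 3: tggcCTGCAGTgcca
CD59, chr11:33717457-33717463, minus strand, coding, exon 3: tagcCTGCAGTgcta
COL6A1, chr21:46003573-46003579, plus strand, coding, exon 35: gggcCAGCAGCgccc
BCAM, chr19:44812249-44812255, plus strand, coding, exon 3: ggggCCGCAGTcccc
PRKCSH, chr19:11446288-11446294, plus strand, coding, exon 10: tgagCTGCAGActca

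The loop of DGAT2 and that of CD59 read CTGCAGT, as does that of BLOC1S1, and the 2nd XBP1 loop reads CTGCAGC. Such a site was found in 515 of 12303 tested genes with a transcript (4.19%), and in 4 of the 8 decay targets, of which COL6A1 was not called and the other three fell. Of the 515 genes 148 were lower (28.7%) and 83 higher (16.1%), with a median change of −0.08. Of the 11788 genes without a site 17.8% were lower and 19.8% higher, with a median of 0.0034. Genes with a site also had longer transcripts, a median of 4527 against 3421 bases, and the part of length in this difference was not tested. At least 2-fold lower were 9 genes with a site (1.75%) and 82 without (0.696%). The 9 were BCAM, DGAT2, FBN1, TNFRSF8, CTSO, CD59, TGOLN2, BLOC1S1 and NOTCH3. Among them TGOLN2, a trans-Golgi membrane protein, was the most abundant, at 69.4, 69.2, 70.0 and 72 CPM in TM siCtrl and 29.9, 26.8, 31 and 36.3 CPM with the inhibitor (−1.18 ± 0.07), and CTSO, a lysosomal protease, stood at 7.97, 7.6, 11 and 9.55 and 3.1, 2.29, 3.81 and 3.73 CPM (−1.45 ± 0.16). XBP1, which holds both sites, rose, as given above, and TMEM19, FITM2, TMEM165 and YIF1A, all lowered more than 2.5-fold, held none in the transcript searched. A match here is a run of letters with a predicted pairing, not a shown cut.

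These genes without a site were among the largest falls of the comparison, and several encode membrane proteins of the secretory pathway. TMEM165 (chr4:56262080-56292342, hg19), a Golgi manganese transporter needed for glycosylation, went from 67.8, 71.9, 60.5 and 67.5 to 23, 21.1, 22.5 and 29 CPM (−1.48 ± 0.13, adjusted p = 4.72e-09). YIF1A, of ER to Golgi transport, went from 73.6, 71, 66.4 and 65.6 to 23.8, 23.4, 26.6 and 26.6 CPM (−1.46 ± 0.10, adjusted p = 1.33e-12). FITM2, which partitions fat into lipid droplets at the ER, went from 9.57, 9.38, 8.85 and 7.9 to 3.93, 1.95, 2.79 and 3.81 CPM (−1.52 ± 0.16). TMEM19, another predicted membrane protein, went from 13.8, 16.9, 14.7 and 12.5 to 5.02, 5.01, 4.08 and 5.75 CPM (−1.55 ± 0.15). For TMEM165 and YIF1A the DMSO means of 71.1 and 71.3 CPM lay close to the TM siCtrl values, so the inhibitor libraries were below both.

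The 12 most raised and 12 most lowered genes were ranked among called genes with a mean of at least 2 CPM whose groups did not overlap. Genes without a standard symbol, such as LOC, LINC, open reading frame, KIAA, microRNA and antisense names, were left out of both rankings. Besides DERL3 and PDIA4, the 12 most raised also held genes that act outside the ER. XDH (chr2:31557188-31637611, hg19), xanthine dehydrogenase of purine breakdown, went from 15.8, 16, 14.7 and 15.1 to 62.3, 70.7, 64.6 and 65.9 CPM (4.28-fold, 2.10 ± 0.08, adjusted p = 3.99e-22) and stood at a mean of 0.584 CPM in DMSO siCtrl. MTUS2, a microtubule-associated gene, went from 2.62, 3.5, 3.41 and 3.65 to 11.8, 12.6, 12.9 and 11.4 CPM (1.89 ± 0.15). PEAR1, a platelet receptor gene, went from 5.47, 5.7, 4.93 and 4.31 to 15.5, 15.1, 15 and 15.3 CPM (1.57 ± 0.15). All 3 were even across the 4 inhibitor libraries, and each was scarce in DMSO siCtrl. AGT, which encodes angiotensinogen, was scarcer and more variable, at 2.67, 1.37, 1.45 and 2.32 and 6.67, 4.67, 9.52 and 7.61 CPM (1.87 ± 0.32). The rise of PLCG2, a phospholipase C gene, rested on inhibitor replicate 3 at 37.5 CPM, the other inhibitor libraries lying between 3.47 and 4.5 CPM. Its change of 2.27 ± 0.59 fell to 0.53 without that library and was then not called. The pseudogenes ZSCAN12P1 and ROCK1P1 rose by 2.35 and 1.61, the lipase relative PNLIPRP3 by 1.45, the chemokine-like FAM19A4 by 1.41 and DTL, of a ubiquitin ligase that limits replication licensing, by 1.40.

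The 12 most lowered genes were headed by KLK3 (chr19:51358171-51364020, hg19), which encodes prostate-specific antigen. It went from 434, 411, 491 and 388 to 44.9, 56.6, 46.5 and 109.8 CPM, a fall by a factor of 6.66 (−2.74 ± 0.27, adjusted p = 3.32e-08), with inhibitor replicate 4 the highest of its group. Its DMSO mean was 2634 CPM. CYP1A1, the classic target of the aryl hydrocarbon receptor, stood at 4.99, 3.56, 3.7 and 8.43 CPM and 0.822, 0.594, 0.34 and 1.49 CPM (−2.66 ± 0.42), and of the other AHR battery genes NQO1 fell (−0.61 ± 0.09), AHR itself rose (0.56 ± 0.13) and CYP1A2, AHRR, ARNT and TIPARP were not called. BMF, a BH3-only death gene, went from 13.4, 14.3, 11.2 and 15.8 to 4.84, 4.33, 3.81 and 4.25 CPM (−1.68 ± 0.15, adjusted p = 9.33e-12). BCAM, a laminin receptor, stood at 6.48, 5.52, 5.37 and 6.24 and 1.64, 1.44, 1.29 and 2.91 CPM (−1.69 ± 0.22). FAM65B, a regulator of small GTPases, went from 26.7, 27.4, 27.4 and 25.1 to 6.21, 9, 7.54 and 11.6 CPM (−1.62 ± 0.17), TM4SF1, a tetraspanin-like surface protein, fell by the same order (−1.70 ± 0.26), and COLCA1 changed by −1.59 ± 0.37.

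Androgen-regulated and luminal genes were mostly lower. Of 29 androgen-regulated genes 16 fell and 3 rose (median −0.28), after 26 of the 29 had means below DMSO in TM siCtrl, and of 10 luminal prostate markers 6 fell and 2 rose (median −0.42). TMPRSS2, an androgen-driven surface protease gene, went from 193, 185, 200.3 and 197 to 73.4, 79.5, 64.6 and 97.6 CPM (−1.30 ± 0.14, adjusted p = 1.16e-07). HOXB13, a prostate lineage factor, went from 180.3, 156, 172 and 180.3 to 70.9, 71.9, 61.9 and 89.1 CPM (−1.23 ± 0.10, adjusted p = 1.60e-09). In both genes inhibitor replicate 4 was the highest of its group, as in KLK3, and the groups did not overlap. KLK2 fell from 66.8, 67.6, 85 and 82.2 to 44.2, 49.7, 39.4 and 58.2 CPM (−0.65 ± 0.15). ACPP, prostatic acid phosphatase, went against the group, from 14, 16.1, 20.0 and 21.9 to 28.7, 32, 34.1 and 56.1 CPM (1.08 ± 0.31, adjusted p = 0.00767). In bulk RNA, fewer cells of a type and less RNA per cell cannot be told apart.

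Most DNA replication genes were higher with the inhibitor than with tunicamycin alone. Of 38 genes 23 rose and 1 fell (median 0.38), the fall being CCNE2, cyclin E2 (−0.50 ± 0.15). The means of 38 of the 38 genes were below DMSO in TM siCtrl, and those of 36 were still below it with the inhibitor. CDC6, which loads the replicative helicase, went from 51.4, 49.7, 54 and 56.3 to 119, 137, 127 and 137 CPM (2.47-fold, 1.30 ± 0.07, adjusted p = 2.43e-18), and was 1 of the 2 genes above their DMSO mean (96.3 CPM). CDC45, of the helicase itself, went from 8.62, 8.31, 8.85 and 10.9 to 17.4, 21.5, 20.9 and 24.9 CPM (1.21 ± 0.13), with a DMSO mean of 59 CPM. RRM2, of ribonucleotide reductase, went from 29.4, 33.4, 30.9 and 36.3 to 47, 56, 47.8 and 76.7 CPM (0.81 ± 0.15), far under its DMSO mean of 218 CPM. Of 30 mitotic genes 13 rose and 2 fell (median 0.19). The 13 rises dropped to 8 without TM siCtrl replicate 4, and the 2 falls were 0 or 1 under 9 of the alternatives. UBE2C, of the anaphase-promoting pathway, rose by 0.50 ± 0.09. Among G1 regulators CCND1, cyclin D1, fell from 180.4, 189.9, 167 and 166 to 123, 129, 119.8 and 130.5 CPM (−0.49 ± 0.06) while the CDK inhibitors CDKN1B and CDKN2B rose by 0.37 and 0.62.

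Sterol and fatty acid genes parted. Of 27 cholesterol genes 17 rose and 1 fell (median 0.36). STARD4, a sterol carrier, went from 29.5, 31.8, 30.5 and 31.1 to 82.3, 65.2, 64.6 and 74.7 CPM (1.22 ± 0.08), HMGCS1, an early enzyme of the pathway, from 190.3, 196, 197 and 228 to 337, 305, 319 and 355 CPM (0.70 ± 0.11) and MSMO1 rose by 0.84. Without inhibitor replicate 1, 2 members were lower. Of 24 fatty acid and triglyceride genes 3 rose and 8 fell (median 0.02). SREBF1, the master regulator of fatty acid synthesis, fell from 247, 203, 228 and 255 to 146, 136, 132 and 159 CPM (−0.70 ± 0.09). ACACB, an acetyl-CoA carboxylase, rose by 0.51, and the count of rises was 5 with a replicate block or DESeq2 and 6 in a fit of the 8 libraries alone.

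Glycolytic and antioxidant genes fell more often than they rose. Of 25 hypoxia and glycolysis genes 0 rose and 11 fell (median −0.20). ALDOA, aldolase, went from 1401, 1280.2, 1260.1 and 1274 to 960.4, 1019.7, 868 and 955 CPM (−0.46 ± 0.06, adjusted p = 4.05e-08). ENO1, PFKP and PFKFB3 changed by −0.38, −0.66 and −0.68, all called. Of 19 NRF2 targets 10 fell and 2 rose (median −0.19), although NFE2L2 mRNA rose. TXNRD1, thioredoxin reductase, went from 1196, 1229, 1197 and 1266 to 874, 832, 854 and 799 CPM (−0.54 ± 0.06). GCLM, of glutathione synthesis, rose by 0.40, and in a fit of the 8 libraries alone 4 members rose.

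Death and lysosome genes changed member by member. Of 25 genes of the BCL2 family and the death receptors 4 rose and 7 fell (median 0.00). Besides BMF, BOK, a BAX relative, went from 15, 10.8, 12.3 and 13.1 to 5.84, 6.62, 4.62 and 7.09 CPM (−1.09 ± 0.14) and TNFRSF10D, a decoy receptor for TRAIL, from 69.5, 71.5, 67.1 and 73.7 to 38.1, 35.2, 35.1 and 31.9 CPM (−1.01 ± 0.07). PMAIP1 (NOXA) rose by 0.49 ± 0.12, and 2 members rose without TM siCtrl replicate 4. Of 27 autophagy and lysosome genes 7 rose and 10 fell (median −0.07). WIPI1 and MAP1LC3B, of autophagosome formation, rose by 1.01 and 0.62, with WIPI1 going from 86.2, 86.3, 84.9 and 90.6 to 175, 175, 179.7 and 172 CPM, while NPC1, the lysosomal cholesterol exporter, and LAMP1 changed by −0.79 and −0.47.

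In the signalling, heat shock and ribosomal groups several counts shifted when 1 library was left out. Of 17 NF-κB targets listed only 9 passed the low-count filter, the others having at most 7 counts in any of the 8 libraries. Of these 9, 5 rose and 0 fell (median 0.35), with 3 of the rises at least 2-fold. Only 3 rose without TM siCtrl replicate 2, TM siCtrl replicate 3 or inhibitor replicate 1. CXCL8, at most 0.178 CPM in TM siCtrl, could pass the filter only through libraries of other groups, so its place among the rises was partly set by the filter. It changed by 3.06 to 3.87 over the alternatives that tested it. RELB changed by 1.12 to 1.58, and CXCL8 and RELB both kept their call. TNFAIP3, the feedback inhibitor A20, went from 1.84, 2.2, 1.67 and 1.73 to 5.48, 3.91, 4.89 and 2.91 CPM (1.19 ± 0.20). Of 19 MAPK and immediate early genes 5 rose and 2 fell (median 0.05), with 2 of the rises at least 2-fold. FOS changed by 1.16 to 1.58 over the alternatives that tested it and kept its call. JUN rose from 106, 105, 101 and 111 to 155, 154, 155 and 172 CPM (0.59 ± 0.06), and DUSP4, a MAPK phosphatase, fell (−0.89 ± 0.14). The MAPK falls were 1 without TM siCtrl replicate 1 and 4 without inhibitor replicate 4, with a replicate block or in a fit of the 8 libraries alone, and the rises were 3 with a minimum count of 50. Of 22 cytosolic heat shock genes 10 rose and 3 fell (median 0.18), with 6 rises in a fit of the 8 libraries alone and 1 fall with DESeq2 or without TM siCtrl replicates 2 or 4 or inhibitor replicates 2 or 4. Of 22 p53 targets 8 rose and 2 fell (median 0.21), and 5 rose without inhibitor replicate 1 or 2 and 13 with a replicate block. AEN, an exonuclease gene, rose by 0.70 ± 0.06 and TP53INP1 changed by −0.98 ± 0.08. Of 58 ribosomal protein genes 0 rose and 13 fell (median −0.07), all by less than 1.5-fold, and the falls were 7 without TM siCtrl replicate 3, 6 without inhibitor replicate 1 and 20 with a replicate block.

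Ranking the falls by CPM rather than by ratio picks abundant transcripts by construction, and some of the genes at the top of that ranking are given here. EEF1A1, the elongation factor, went from 18919, 19467, 19513 and 19174 to 17413, 17479, 17442 and 16925 CPM (−0.15 ± 0.05), ACTB from 2829, 2665, 2433 and 2381 to 1745, 1855, 1754 and 1818 CPM (−0.52 ± 0.05, adjusted p = 7.98e-10) and FTH1, ferritin heavy chain, from 4502, 4064, 3857 and 3832 to 3207, 3092, 3425 and 3135 CPM (−0.34 ± 0.10). SPON2, a secreted matrix protein of prostate tumours, fell from 1567, 1297, 1359 and 1304 to 841, 831, 769 and 904 CPM (−0.72 ± 0.07). CPM are shares, so the rise of the ER chaperones takes counts from all other genes. The scaling factors are meant to allow for this, but they assume that most genes do not change. Under upper-quartile factors and DESeq2's size factors the median change of all genes was −0.013 and 0.0084. The same assumption keeps these medians near 0, so they cannot show whether the allowance is right. Small falls such as that of EEF1A1 depend on it.

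The PERK siRNAs, under the same tunicamycin treatment, act on PERK through its mRNA, and their libraries were compared with the inhibitor libraries directly. The counts measure neither PERK protein nor its kinase activity. The level of EIF2AK3 mRNA was 24.6 ± 3.99 CPM (SD, n = 4) in the siPERK-1 libraries, and the siPERK-3 libraries had 21.5 ± 2.14 CPM. The inhibitor libraries differed from siPERK-1 in 6771 genes (47.3%) and from siPERK-3 in 6733 (47.0%). They were higher than both siRNAs in 2713 genes (19.0%) and lower than both in 2702 (18.9%). For the PERK branch 10 of 15 genes were higher with the inhibitor than with both siRNAs and 2 lower. These 15 include EIF2AK3, whose own mRNA the siRNAs target, so its difference follows from the design. Among the ATF4 and CHOP targets 19 of 30 were higher and 1 lower. For the androgen-regulated genes 1 of 29 was higher and 16 were lower, and for hypoxia and glycolysis 0 of 25 were higher and 18 lower. By these counts other groups ran the opposite way to their change against TM siCtrl. Of the 27 cholesterol genes, 17 rose against TM siCtrl. Compared with both siRNAs, 2 of the 27 were higher with the inhibitor and 10 were lower. Their median difference (inhibitor minus siRNA) was 0.0046 for siPERK-1 and −0.42 for siPERK-3, so the median was lower only against siPERK-3. Of the 9 NF-κB targets 0 were higher than with both siRNAs and 4 were lower, and of the 22 cytosolic heat shock genes 1 was higher and 8 were lower.

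The siRNA and inhibitor values against TM siCtrl share those 4 control libraries and are set side by side only. DDIT3 changed by 1.31 with the inhibitor, 0.18 with siPERK-1 and 0.23 with siPERK-3, and the direct differences of the inhibitor from the siRNAs were 1.13 ± 0.14 (adjusted p = 7.97e-07) and 1.08 ± 0.14 (adjusted p = 1.58e-06). MTHFD2 changed by 0.56, −0.53 and −0.23, with direct differences of 1.09 ± 0.08 and 0.79 ± 0.07. CHAC1, not called with the inhibitor, was higher with it than with either siRNA by 0.62 ± 0.22 and 0.97 ± 0.23. TMPRSS2 was lower with the inhibitor than with the siRNAs, the differences being −1.53 ± 0.14 and −1.61 ± 0.14. PDIA4 changed by 1.74, 1.69 and 1.66, and its direct differences, not called, were 0.05 ± 0.07 (adjusted p = 0.64) and 0.07 ± 0.07 (adjusted p = 0.424). HSPA5 was higher with the inhibitor by 0.75 ± 0.09 and 0.73 ± 0.09. CD59 changed by −0.62 and −0.57 with the siRNAs, both called, and was lower still with the inhibitor, by differences of −0.57 ± 0.08 and −0.62 ± 0.08.

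**Figure D5:**
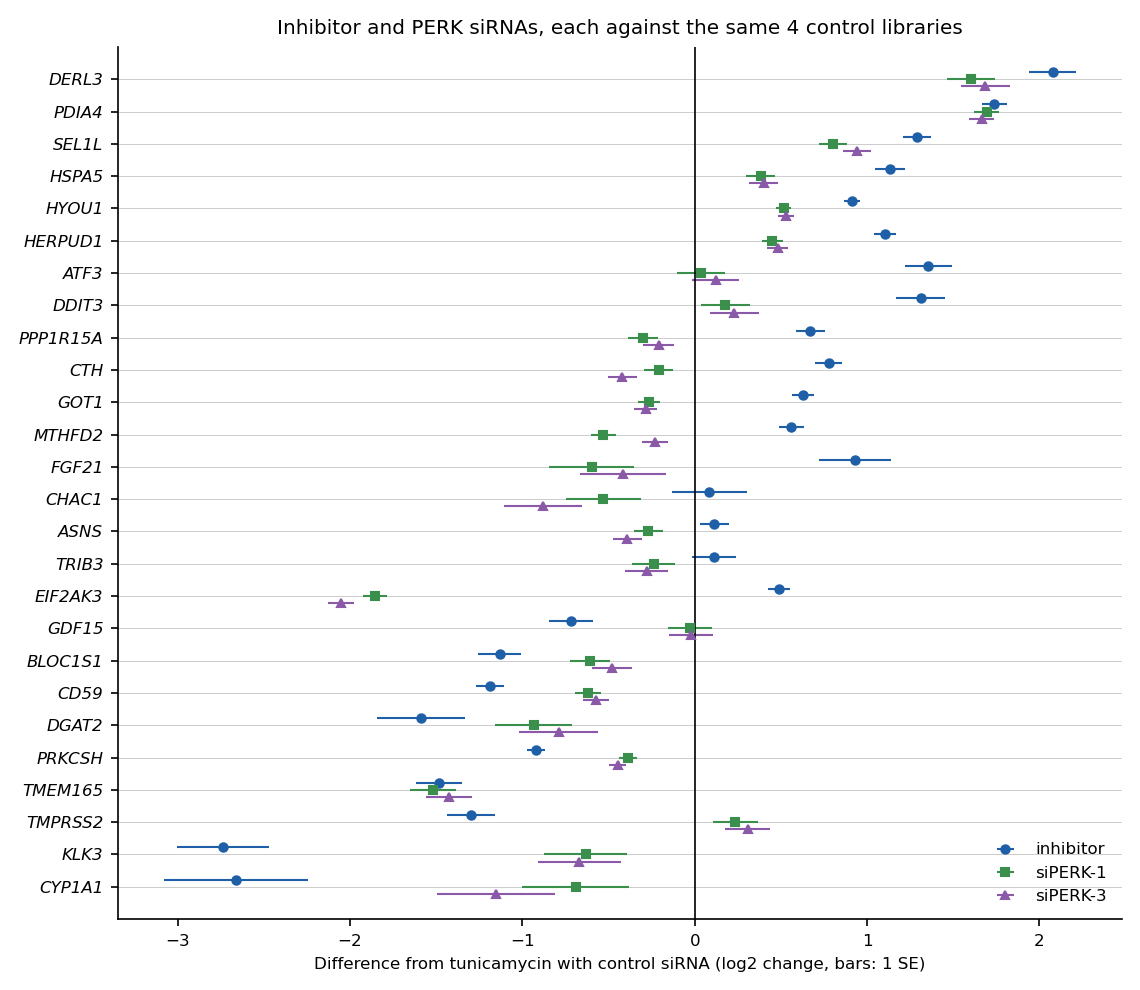
Log2 difference ± 1 SE from TM siCtrl for 26 genes with the inhibitor (blue circles), siPERK-1 (green squares) and siPERK-3 (purple triangles), all against the same 4 control libraries. The 3 points of PDIA4 lie within 1 SE of each other, as do those of TMEM165. In contrast, DDIT3, ATF3 and HSPA5 lie further right with the inhibitor, and EIF2AK3 lies right of 0 with the inhibitor and left with the siRNAs.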

How the data were processed

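Strand-specific RNA-seq was made from total RNA of LNCaP cultures, and the deposited tables hold raw counts per gene, which the authors made with TopHat2 2.1.0 alignments to hg19 and featureCounts 1.5.0-p1, per the submitters' processing notes. The sources used here do not give their settings, gene models or use of strand. The 6 deposited tables hold 25369 named genes in 28 libraries (7 groups of 4), with 0 differing values among the repeated TM siCtrl columns.

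One edgeR 4.0.16 quasi-likelihood model (robust, TMM, R 4.3.3) with a mean per group was fitted to all 28 libraries, after filterByExpr with a minimum count of 10, so the 7 groups share the estimate of spread. Genes were called at a Benjamini-Hochberg adjusted p under 0.05 over all genes tested, separately in each comparison. Every adjusted p in the text comes from this fit. CPM use TMM-scaled library sizes. Groups were taken from the labels, and counts carry sampling and replicate error only.

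Named genes follow a rule: core genes of PERK signalling, the 12 most raised and lowered, those with the largest CPM changes, and up to 5 called members of each list. Other genes named were chosen after their values were seen: FBN1, TNFRSF8, CTSO, TGOLN2, NOTCH3, CHAC1, ASNS, STC2, EIF2A, ALG12, FICD, TRIM5, SERP1, RAD9A, SHCBP1, GYS1, PLS3, SIL1, SDF2, PDIA3, UBE2G2, CRELD2, CALR, CANX, TNFRSF10B, COL6A1, SPARC, ENO1, PMAIP1, ATF6, CCNE2 and PSMB5. The comparison and the gene lists were chosen with earlier results of these data known. Alternatives used limma 3.58.1 (voom), DESeq2 1.42.0, other filters and factors, a replicate block and leaving out each library. Genes whose exons overlap another gene, here AHRR, BLOC1S1, BOK, CCNE2, COLCA1, CREB3, DDIT3, DERL3, DOLK, DTL, EIF2AK1, EIF2AK3, ENO1, FTH1, HSP90B1, NPC1, PDIA3, PDIA6, QSOX1, RAD9A, SPARC, SPON2, SREBF1, STARD4, SYVN1, TIPARP, TM4SF1 and TNFRSF10B, are uncertain because strand use is unknown, as are the pseudogenes named and genes with near-identical copies (EEF1A1, ACTB, FTH1 and ribosomal proteins). Some members of the lists are not reported here by name.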

Additional observations from a re-analysis of the deposited data

Results flagged for a closer look

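Among the named genes, 18 values stood apart from the other 3 libraries of their group by Dixon's criterion, out of 444 groups of 4 looked at. Chance alone gives about 1 in 20 groups. Inhibitor replicate 4 held 10 of the 18. It was high for COLCA1 (29.86 CPM, the others 12.8 to 13.4), PMEPA1 (35.757 CPM), JUN (171.84 CPM) and COL6A1 (129.59 CPM). It was low for EEF1A1 (16925 CPM), GFPT1 (979.63 CPM), GOT1 (380.42 CPM), SLC3A2 (1776.4 CPM), MAP1LC3B (281.58 CPM) and TRIM5 (161.99 CPM). For the genes of these that were called, the values in this library lay nearer to TM siCtrl than those of the other inhibitor libraries, except JUN and EEF1A1, where they lay further away. Inhibitor replicate 3 was high for PLCG2 (37.452 CPM, the others 3.47 to 4.5) and SEC23B (794.58 CPM).

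In TM siCtrl, replicate 4 was low for CDC20 (41.801 CPM) and high for HSPA1B (27.138 CPM) and TIPARP (11.213 CPM). Replicate 1 was high for CXCL8 (0.17832 CPM) and ALDOA (1401.3 CPM), and replicate 3 was low for EGLN3 (8.1983 CPM).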

How the results depend on the processing

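The number of genes higher with the inhibitor lay between 2254 and 2951 over all alternatives and the number lower between 2155 and 2866. Leaving out each library gave 2254 to 2535 higher, 2155 to 2426 lower, 100 to 117 at least 2-fold higher and 102 to 152 at least 2-fold lower, the 152 being without inhibitor replicate 4. With a minimum count of 50, 48 genes were at least 2-fold higher and 70 at least 2-fold lower, since fewer genes with low counts are tested. The difference from siPERK-1 covered 6053 to 7348 genes and that from siPERK-3 6001 to 7274.

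Inhibitor and TM siCtrl libraries of the same number correlated at 0.0881, 0.0925, 0.0806 and 0.2137 in their deviations from the group means. In all 4 this was above the highest value with another number (0.0415, 0.0144, 0.0293 and −0.0154), a hint from the data and not from the design. With a replicate block 2951 genes were higher and 2866 lower, 115 and 114 of them at least 2-fold, and 7348 and 7274 differed from the siRNAs.

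Of 3308 values of 222 named genes under alternatives, 3171 kept their direction and side of the threshold, 115 lost the call, 15 gained one and 7 changed sign, all 7 in genes that were not called. CYP1A2 was at 0.0272 without TM siCtrl replicate 4 and 0.0467 without inhibitor replicate 2 (range −0.272 to 0.0467 over left-out libraries). AHRR was at −0.0544 without TM siCtrl replicate 2 and −0.0556 without TM siCtrl replicate 4 (−0.0556 to 0.382). TIPARP was at 0.0193 and 0.0169 without TM siCtrl replicate 4 and inhibitor replicate 2 (−0.0692 to 0.0193), and SPARC at −0.0041 without inhibitor replicate 2 (up to 0.4944). The cause was not tested. Of 990 counts of list members, 85 moved by more than 1.5 times. At these depths genes under about 1 CPM have few counts, and small changes in them were not detectable.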
